A study of Mus musculus with 25 samples.

Results

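TAL1 locations with no GATA1 call in their neighbourhood were examined. They are the entries of the final TAL1 list that had no entry of any of the 3 GATA1 lists (final, MultiGPS or peak pair) less than 500 bp away. The rule was met by 2193 of 15209 final TAL1 locations, or 14.4%. The other 13016 TAL1 locations had a GATA1 call closer than that, and 4179 of them were cooccupied, which means that a final GATA1 location lay less than 40 bp away. Membership was thus set by distances to GATA1 calls, and those distances are given here only as a description.

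The study mapped GATA1 and TAL1 by ChIP-exo, in which an exonuclease trims immunoprecipitated DNA up to the cross-linked protein, so that a bound protein leaves a pair of peaks on opposite strands. G1E cells are mouse erythroid progenitors of strain 129 that lack GATA1. G1E-ER4 cells are derived from them and carry GATA1 fused to the ligand-binding domain of the estrogen receptor, so that estradiol activates GATA1 and the cells mature. TAL1 was mapped in G1E-ER4 cells at 0 h (5 libraries), 3 h (3 libraries) and 24 h (3 libraries) of estradiol and in G1E cells (4 libraries). GATA1 was mapped in G1E-ER4 cells at 0, 3 and 24 h (3 libraries each) and in G1E cells (1 library). Each list pools these libraries and holds positions only, with no score, tag count, time point or replicate. Neither occupancy nor a change over time can therefore be read from it, and intervals and tests below cover counting error over locations or loci treated as independent. By the study's text the GATA1 lists come from the G1E-ER4 libraries, although the labels tie the G1E library to them too, whereas the TAL1 lists also take in G1E cells. A TAL1 location of cells without GATA1 and one that GATA1 does not accompany in maturing cells cannot be told apart in these lists.

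TAL1 is a basic helix-loop-helix factor that binds DNA as a heterodimer with an E protein, and the heterodimer recognises the E-box CANNTG. In erythroid cells it works in a complex with LMO2 and LDB1, through which it can also be held next to GATA1. GATA factors recognise WGATAA (W is A or T), and a composite element pairs this site with an E-box, or with only the TG that ends one, a short distance upstream.

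Windows of 81 bp around 13 of the members show the range of sequences found (mm9 plus strand, 5′ to 3′). Capitals mark the highest-scoring WGATAA-type site, the TG that stands 7 or 8 bp upstream of it, and every CANNTG. A site on the minus strand reads as its reverse complement, with TG as CA. The first set holds the composite arrangement, at Sox6, Ssbp2 and Kit.
Sox6, chr7:122989627-122989707 (intron, 48 bp from a start site): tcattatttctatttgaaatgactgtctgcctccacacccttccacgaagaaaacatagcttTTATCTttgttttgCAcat
Sox6, chr7:122988591-122988671 (intron, 988 bp from a start site): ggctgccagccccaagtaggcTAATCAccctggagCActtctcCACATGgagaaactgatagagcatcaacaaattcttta
Ssbp2, chr13:91596488-91596568 (4127 bp upstream of a start site): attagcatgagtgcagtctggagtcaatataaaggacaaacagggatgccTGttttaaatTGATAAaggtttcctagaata
Kit, chr5:75975292-75975372 (intron, 4352 bp from a start site): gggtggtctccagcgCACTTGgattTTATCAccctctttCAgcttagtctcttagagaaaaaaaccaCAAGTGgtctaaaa

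The next set holds an E-box CAGMTG (M is A or C) within 10 bp of the TAL1 position.
Gp6, chr7:4349461-4349541 (155 bp upstream of a start site): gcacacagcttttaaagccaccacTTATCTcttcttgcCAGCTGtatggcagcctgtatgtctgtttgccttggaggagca
Cbfa2t3, chr8:125223149-125223229 (180 bp upstream of a start site): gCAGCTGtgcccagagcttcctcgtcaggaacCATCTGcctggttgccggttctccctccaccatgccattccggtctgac
Ssbp2, chr13:91616353-91616433 (intron, 15697 bp from a start site): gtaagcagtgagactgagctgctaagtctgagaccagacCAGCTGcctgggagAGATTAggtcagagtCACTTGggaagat
Zdhhc19, chr16:32520655-32520735 (intron, 24344 bp from a start site): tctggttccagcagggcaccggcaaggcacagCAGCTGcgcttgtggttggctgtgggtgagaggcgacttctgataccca

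These come from the middle of 3 loci with 5 or 6 members each.
3110043O21Rik, chr4:35183736-35183816 (intergenic, 10404 bp from a start site): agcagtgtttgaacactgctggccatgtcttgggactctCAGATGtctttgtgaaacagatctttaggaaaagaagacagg
Cbfa2t3, chr8:125223023-125223103 (54 bp upstream of a start site): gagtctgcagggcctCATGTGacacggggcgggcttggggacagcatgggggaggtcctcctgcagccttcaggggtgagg
Nrp2, chr1:62819766-62819846 (intron, 69530 bp from a start site): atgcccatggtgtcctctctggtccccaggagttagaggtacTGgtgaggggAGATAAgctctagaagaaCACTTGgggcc

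The last pair shows members with neither motif.
Ahsg, chr16:22891899-22891979 (176 bp upstream of a start site): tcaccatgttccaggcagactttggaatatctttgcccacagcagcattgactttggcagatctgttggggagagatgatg
Cbfa2t3, chr8:125223273-125223353 (304 bp upstream of a start site): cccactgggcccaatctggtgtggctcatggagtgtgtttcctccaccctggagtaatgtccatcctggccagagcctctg

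In 7 of the 13 windows a TG stood 8 bp from the WGATAA-type site, and in 2 of these, at Gp6 and in the Ssbp2 intron, the TG closed a full CANNTG. The windows were picked by motif and by closeness to listed genes, so they illustrate the arrangements and do not measure how common they are.

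The closest GATA1 call lay a median of 7703 bp from a member (quartiles 2383 and 20814 bp, maximum 742568 bp). The closest final GATA1 location lay a median of 23311 bp away (quartiles 5929 and 80489 bp). For the other TAL1 locations the median distance to the closest call was 23 bp (quartiles 8 and 72 bp). Around the threshold, the members nearest to it had calls 500, 501, 502, 503 and 504 bp away, and the TAL1 locations just excluded had calls 499, 492, 492, 491 and 489 bp away. All 3 GATA1 lists shaped the set. Without a final GATA1 location in range there were 4319 TAL1 locations, of which 582 were removed by a MultiGPS location outside the final list and a further 1544 by a GATA1 peak pair alone.

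**Figure D1:**
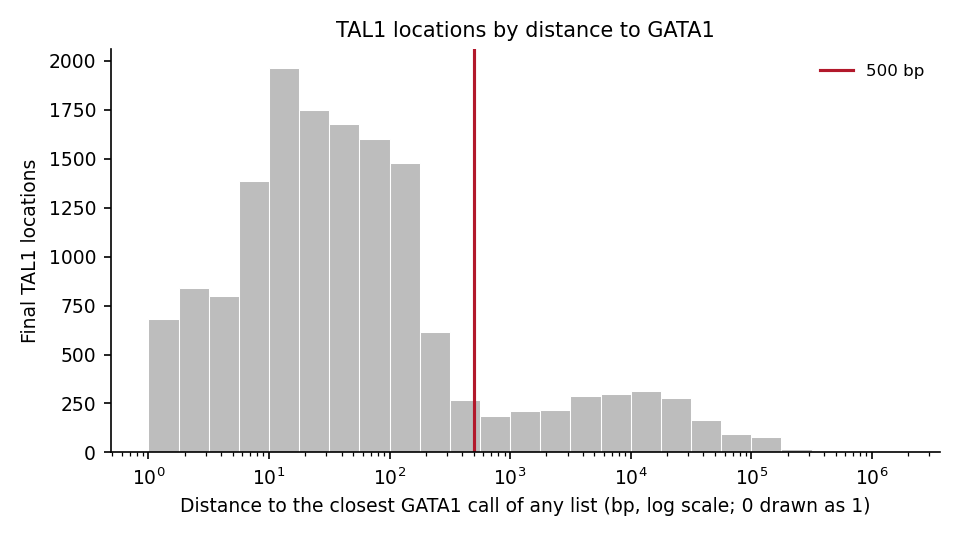
Number of final TAL1 locations (y axis) by distance in bp to the closest GATA1 call of any of the 3 lists (x axis, log scale, with 0 drawn as 1), and a line at 500 bp. Most locations lie well below the line, and the 2193 to the right of it spread around a median of 7703 bp.

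Most members carried a GATA-type site although no GATA1 was called near them. A WGATAA-type site, scored with a weight matrix learned from GATA1 locations, lay within 40 bp of 1370 of 2193 members (62.5%, 95% exact binomial interval 60.4 to 64.5), against 15.7% of the same windows moved by 1 kb. It lay within 40 bp of 57.0% of the other TAL1 locations, 82.6% of the cooccupied ones and 57.8% of all TAL1 locations. The 6 bases at the site were AGATAA at 52.7% of member sites and 51.1% of sites of the other TAL1 locations, and TGATAA at 26.2% and 25.7%.

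Because TAL1 locations cluster, classes were compared with 1 location of each class per locus, where a locus is a run of TAL1 locations less than 500 bp apart (1934 loci with members and 6410 with other TAL1 locations). By this unit the site was less common at members, with 65.0% against 69.3% (odds ratio 0.823, 95% interval 0.739 to 0.916, two-sided Fisher's exact test, p = 3.97e-04, adjusted p = 4.76e-04 over the 6 tests of this kind). The direction depends on the unit, since over all locations the site was more common at members (odds ratio 1.25, exact p = 1.64e-06). Among locations alone in their locus the share was 66.1% at members and 72.9% at others (odds ratio 0.724, exact p = 3.41e-07). Against cooccupied locations, 1 per locus, members had the site less often (65.0% against 83.0%, odds ratio 0.38, exact p = 2.07e-49). Cooccupied locations were chosen by a final GATA1 location close by, and the matrix was learned from final GATA1 locations. This last difference is therefore partly set by the choice of classes, and nothing is concluded from its p-value.

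Where members had a GATA-type site, it was more often the composite one. A TG stood 7 or 8 bp upstream of 865 of 1370 member sites (63.1%, interval 60.5 to 65.7), against 47.3% of sites at the other TAL1 locations and 46.9% of sites at cooccupied ones. In moved windows the share was 17.1% of 345 sites. With 1 location per locus it was 63.0% of 1301 member sites and 48.9% of 5187 other sites (odds ratio 1.78, 95% interval 1.57 to 2.01, two-sided Fisher's exact test, adjusted p = 2.25e-19). Against cooccupied sites the odds ratio was 1.90 (63.0% against 47.1%, exact p = 1.45e-21).

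The excess of TG was placed at 2 distances. At member sites a TG stood 7 bp upstream in 22.0% and 8 bp upstream in 41.2%, against 18.7% and 28.3% at cooccupied sites. At 6 and 9 bp the member shares were 8.54% and 10.2%, against a mean of 8.14% per distance over spacings of 0 to 30 bp without those of 6 to 10 bp. The corresponding mean at cooccupied sites was 8.28%.

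**Figure D2:**
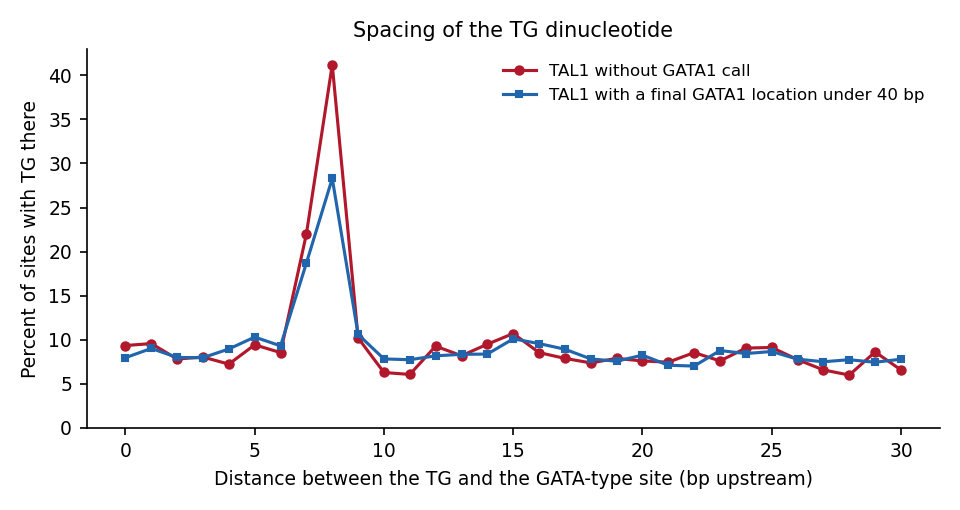
Share of WGATAA-type sites with a TG (y axis, percent) at each distance upstream of the site (x axis, bp), for TAL1 locations without a GATA1 call and for TAL1 locations with a final GATA1 location under 40 bp away. Both lines peak at 8 bp, with 41.2% and 28.3% of sites, and lie near 8% elsewhere except at 7 bp.

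A full E-box in the composite position was the minority form in every class. The TG closed a CANNTG at 177 of 865 member composites (20.5%, interval 17.8 to 23.3), at 15.7% of composites of the other TAL1 locations and at 14.3% of cooccupied ones. The middle bases of these 177 boxes were GC in 62 and TC in 33. These shares were not tested.

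E-boxes of the CAGMTG form were also more common at members. CAGMTG lay within 40 bp of 651 of 2193 members (29.7%, interval 27.8 to 31.6), against 20.4% of other TAL1 locations, 24.7% of cooccupied ones, 21.7% of all TAL1 locations and 10.4% of windows moved by 1 kb. With 1 location per locus the shares were 30.4% at members and 22.7% at others (odds ratio 1.48, 95% interval 1.32 to 1.66, two-sided Fisher's exact test, adjusted p = 4.00e-11). The difference was also present where no WGATAA-type site lay in the window (30% against 20.2%, odds ratio 1.69, exact p = 1.50e-08). Any CANNTG lay within 40 bp of 53.3% of members and 44.0% of other TAL1 locations, against 36.2% of member windows moved by 1 kb.

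**Figure D3:**
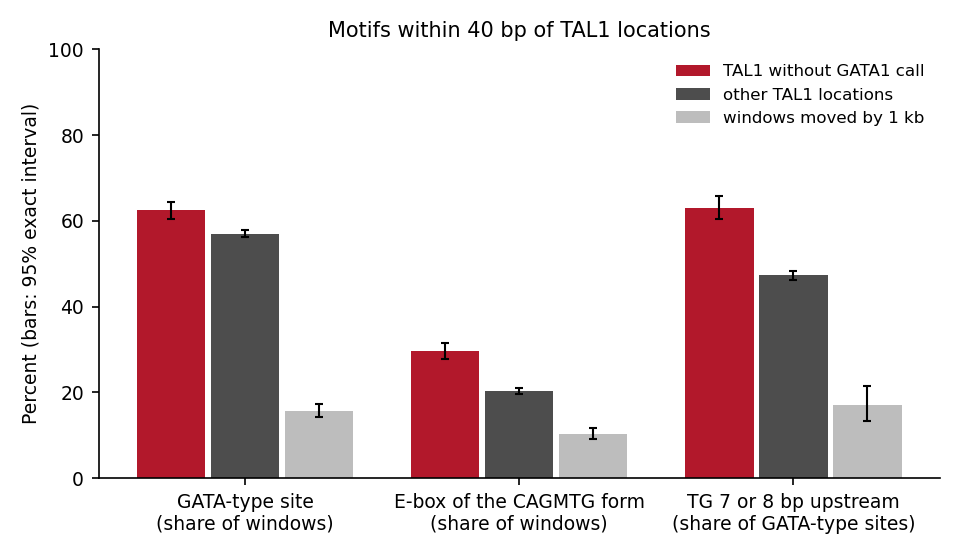
Share in percent (y axis, bars with 95% exact intervals) of windows with a WGATAA-type site, of windows with CAGMTG, and of WGATAA-type sites with TG 7 or 8 bp upstream, for TAL1 locations without a GATA1 call, for the other TAL1 locations and for member windows moved by 1 kb. Over all locations members are highest in each group, at 62.5%, 29.7% and 63.1%; with 1 location per locus the first of these shares is lower at members than at others.

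Of 21 further motifs searched on both strands within 40 bp, including the 10 E-box cores, 3 differed between members and the other TAL1 locations after adjustment over the 21 by the Benjamini-Hochberg method, and all 3 were more common at members. They were E-box cores, 2 of which make up CAGMTG. The core CAGCTG was found at 14.9% of member loci and 10.5% of other loci (odds ratio 1.49, exact adjusted p = 4.86e-06). CAGATG was found at 17.5% and 13.2% (odds ratio 1.39, exact adjusted p = 2.34e-05), and CAGGTG at 9% and 5.85% (odds ratio 1.59, exact adjusted p = 2.34e-05). All 3 tests were two-sided Fisher's exact tests. CAGGTG was at 8.57% of members against 7.02% of their moved windows, whereas CAGCTG was at 14.6% against 4.1% and CAGATG at 17.2% against 6.61%. The RUNX motif TGTGGT was at 9.31% of member loci and 11.0% of other loci and did not pass (odds ratio 0.829, 95% interval 0.698 to 0.985, exact adjusted p = 0.185). The ETS motif MGGAAG, at 15.9% and 14.7%, did not pass either (odds ratio 1.10, interval 0.954 to 1.26).

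Without reference to any motif, the 6-base words most in excess within 20 bp of members over their moved windows were mostly parts of the same 2 elements. CTTATC, the reverse complement of GATAAG, was at 11.2% of members and 1.46% of moved windows, a ratio of 7.69. The palindrome CAGCTG had a ratio of 4.49 (9.21% against 2.05%), and CAGATG a ratio of 3.55 (10.7% against 3.01%). CTGCAG, which is neither, had a ratio of 3.56.

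By motif content the members formed 5 groups. The composite of WGATAA-type site and TG was the largest, with 865 members (39.4%), against 27.0% of other TAL1 locations. Per location it was about as common at cooccupied locations, with 38.8%. A WGATAA-type site without that TG was at 505 members (23.0%, against 30.1% of other TAL1 locations and 43.8% of cooccupied ones). A CAGMTG with no WGATAA-type site was at 250 (11.4%, against 8.01% of other TAL1 locations) and another CANNTG at 198 (9.03%, against 10.5%). The remaining 375 members (17.1%) had neither motif, as had 24.4% of other TAL1 locations.

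Motif shares were also taken by distance to GATA1. Over 6 bins of distance to the closest GATA1 call, of 223 members at 500 to 1000 bp up to 229 members beyond 50000 bp, the share with a WGATAA-type site was between 58.1% and 69.0%. The share of those sites with TG was between 60.5% and 67.3%, and the share with CAGMTG between 26.5% and 32.9%. The share with a WGATAA-type site was 61.4% in the closest bin and 69.0% in the farthest. These shares are descriptive, since the rule used the distance.

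TAL1 sat upstream of the WGATAA-type site of the composite, on the side of the TG. Relative to the WGATAA-type site the member positions had a median of −16 bp where there was a TG (77.7% upstream), and −9 bp where there was none (58.4% upstream). At cooccupied locations with TG the median was −14 bp, with 74.2% upstream. TAL1 peak pairs, the cross-linking points that the authors called apart from MultiGPS, peaked at −16 bp around 848 member sites with TG and at −15 bp around 1500 cooccupied ones. Of the pairs within 60 bp, 68.0% lay upstream at members and 56.6% at cooccupied sites. Where no WGATAA-type site was in the window, the mean over 5 bp was highest within the E-box itself. The highest values were at −1 and 0 bp from the centre of CAGATG (174 sites) and at 2 bp from the centre of CAGCTG (128 sites). Around CAGATG the maximum was broad, with 0.0264 pairs per site and bp at −1 bp and 0.0241 at −8 bp. These positions were not tested, and neighbouring sites share pairs.

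**Figure D4:**
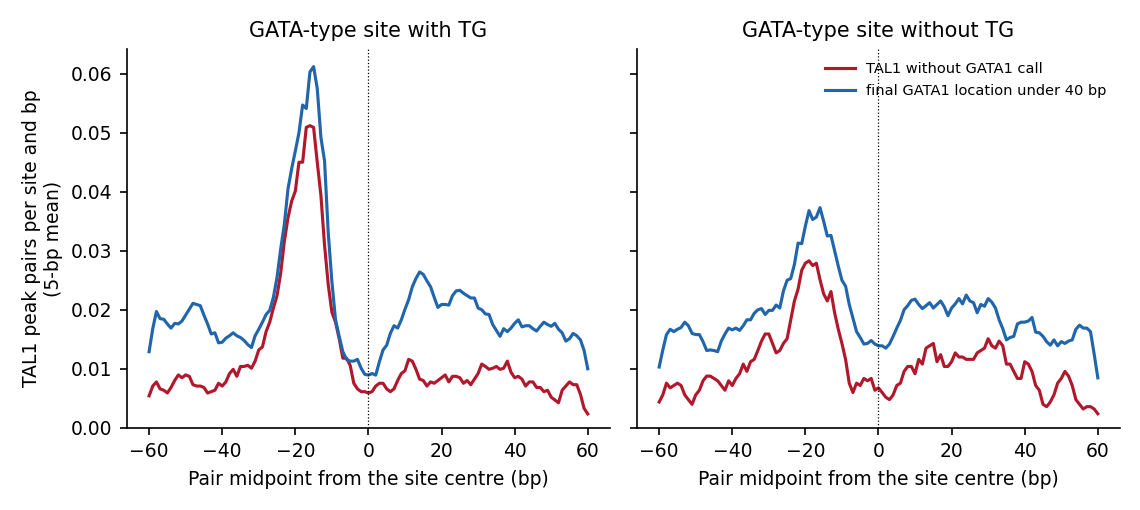
TAL1 peak pairs per site and base pair (y axis, mean over 5 bp) by position of the pair midpoint relative to the centre of the WGATAA-type site (x axis, bp, negative upstream), with TG (left) and without (right), for TAL1 locations without a GATA1 call and for cooccupied ones. With TG both classes peak near −16 bp. The peak is higher at cooccupied sites (0.0612 against 0.0512 at members), and these also have more pairs than members downstream of the site.

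Members were supported by fewer TAL1 peak pairs than the other TAL1 locations. Within 100 bp a member had a mean of 1.84 pairs (median 1, maximum 7), against 3.48 (median 3, maximum 9) at other TAL1 locations. A single pair was found at 51.3% of members and 16.4% of other TAL1 locations. With 1 location per locus, 2 or more pairs lay at 44.3% of members and 73.9% of others (odds ratio 0.281, 95% interval 0.253 to 0.312, two-sided Fisher's exact test, adjusted p = 1.35e-123). Neighbouring TAL1 locations add pairs, so locations alone in their locus were compared as well, with 39.9% at members and 59.7% at others (odds ratio 0.448, exact p = 4.35e-42).

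The motif differences were compared separately among locations with 1 pair and with 2 or more, a comparison added after seeing the data. Pair numbers are alike only among those with 1 pair. With 1 location per locus, 3 or more pairs lay at 18.5% of members and 50.6% of other TAL1 locations (22.2% and 65.5% over all locations). Among locations with 1 pair, TG stood upstream of 60.2% of member sites and 43.5% of other sites (odds ratio 1.97, exact p = 7.28e-13), and among those with 2 or more pairs of 65.5% and 50.3% (odds ratio 1.88, exact p = 3.01e-12). CAGMTG was at 29.4% and 19.8% with 1 pair (odds ratio 1.69, exact p = 1.94e-09) and at 30.8% and 23.5% with 2 or more (odds ratio 1.45, exact p = 5.94e-06). The WGATAA-type site did not keep its direction, with 64.4% at members and 61.5% at others with 1 pair (odds ratio 1.14, exact p = 0.104) and 64.2% and 70.1% with 2 or more (odds ratio 0.766, exact p = 6.18e-04). All were two-sided Fisher's exact tests with 1 location per locus.

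**Figure D5:**
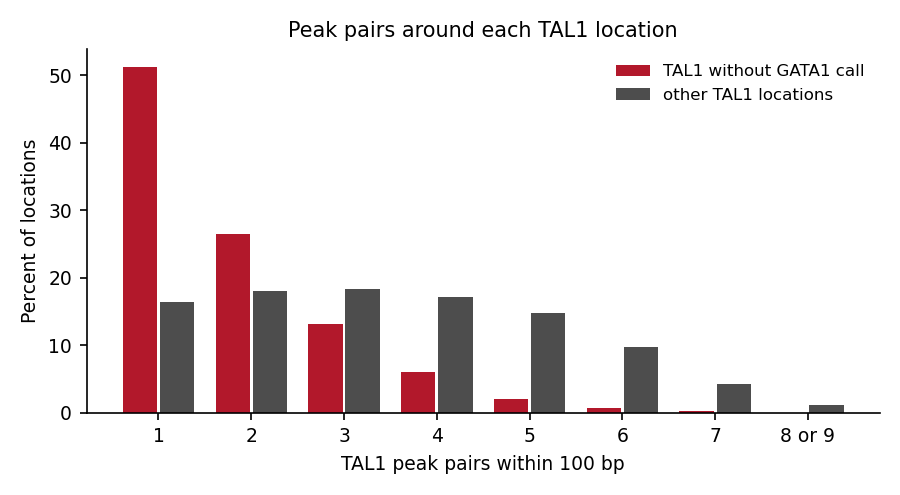
Share of locations in percent (y axis) by the number of TAL1 peak pairs within 100 bp (x axis, with 8 and 9 together), for TAL1 locations without a GATA1 call and for the other TAL1 locations. A single pair was found at 51.3% and 16.4%, and the other TAL1 locations extend to 9 pairs.

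Members mostly stood alone. Of 1911 loci made only of members, 1727 (90.4%) held a single location and 184 held 2 or more, with at most 6. Of 6387 loci without a member, 57.7% held a single location, and the largest held 19. Only 23 loci held both members and other TAL1 locations. Within loci the gap between neighbours had a median of 99.5 bp in member loci (254 gaps) and 91.5 bp in loci without members (6554 gaps). The rule bears on locus size, so these values were not tested.

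Members were spread over introns and intergenic DNA, and were more often intergenic than other TAL1 locations. Among members, 49.4% lay in introns of protein-coding genes, 45.8% in intergenic DNA and 4.83% in exons, against 54.2%, 42.0% and 3.8% of other TAL1 locations. With 1 location per locus the intergenic share was 45.6% at members and 40.4% at others (odds ratio 1.24, 95% interval 1.12 to 1.37, two-sided Fisher's exact test, adjusted p = 7.54e-05). A start site lay within 1 kb of 7.24% of member loci and 7.35% of other loci, a difference that did not pass (odds ratio 0.984, interval 0.809 to 1.20, exact p = 0.921). Within 5 kb the shares were 22.4% and 24.9% (odds ratio 0.873, exact p = 0.0294). The closest start site lay at a median of 16959 bp from members and 15626 bp from other TAL1 locations.

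Genes were assigned a member that fell inside them or up to 10 kb outside. This held for 1560 of 22208 protein-coding genes (7.02%), while 4735 (21.3%) had any TAL1 location. In 815 of the 1560 genes (52.2%, or 3.67% of all protein-coding genes) every TAL1 location was a member. Of the 1560 genes, 702 (45.0%, or 3.16% of all protein-coding genes) had no final GATA1 location within 10 kb. The rule used distances to GATA1 calls, so it bears on this second count. The matching share among all genes with a TAL1 location was not taken. The gene assignment is by distance only.

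The 2 loci with the most members, 6 each, lay near 3110043O21Rik and Cbfa2t3. The next place was shared by 5 loci of 5 members, of which the one in Nrp2 came first by genome position and is described. The intergenic locus near 3110043O21Rik held 6 members in 164 bp (chr4:35183725-35183889), yet only 3 TAL1 peak pairs lay within 100 bp of that stretch. The locus at the start site of Cbfa2t3 held 6 members in 482 bp (chr8:125222831-125223313), with 13 peak pairs, and its closest GATA1 call was 1526 bp away. Of its members 3 had CAGMTG and only 1 had a WGATAA-type site. The locus in an intron of Nrp2, which encodes neuropilin 2, a co-receptor for semaphorins and vascular endothelial growth factors, held 5 members in 299 bp (chr1:62819644-62819943), with 10 peak pairs, and its closest GATA1 call was 159456 bp away. Support by peak pairs thus differed between the 3 loci, with 3, 13 and 10 pairs for 6, 6 and 5 positions.

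Among genes whose start site was the closest to a member, Gadd45g, a growth arrest and DNA damage response gene, was the closest for 8 members in 3 loci, 4684 to 129893 bp away, out of 10 TAL1 locations. Cbfa2t3 was the closest for 7 members of 46 TAL1 locations and Gm11016 for 7 of 11. Genes closest to 6 members each included 3110043O21Rik (of 8 TAL1 locations), Accn4 (of 18), Ccnd3 (of 22), Cxxc5 (of 6), Mylk3 (of 19) and Nrp2 (of 8). Ccnd3 encodes cyclin D3, which governs the number of divisions of maturing erythroid cells, and its 6 members lay in 4 loci, 4 of them with CAGMTG. At Cxxc5 every TAL1 location was a member, and the closest GATA1 call was 6660 bp from any of them.

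Genes of the TAL1 complex and its partners carried members at 6 of 18 genes (33.3%, against 7.02% of all genes). They were 6 of the 13 listed genes that had any TAL1 location (46.2%, against 32.9% of all genes with one), and 15 of the 80 TAL1 locations near the list were members (18.8%, against 14.4% of all TAL1 locations). The lists were chosen with earlier results of these data known, and no enrichment was tested. Cbfa2t3, which encodes the corepressor ETO2 of that complex, had 7 of the 15 members, among 23 TAL1 locations inside it or up to 10 kb outside. Of these 7 members, 6 formed the locus at its start site. Close positions of 1 locus thus weigh on the 18.8% of the list. The positions upstream of that start site also lie in an intron of Gm20388, an annotated gene model that spans many genes. Ssbp2, which encodes an LDB1-binding protein, had 3 members of 7 TAL1 locations, 1 upstream and 2 intronic, at 4127, 13156 and 15697 bp from the closest start site of the gene, all 3 with a composite. Tcf12, which encodes the E protein HEB, had 2 intronic members of 6, both with a composite, and their closest GATA1 calls lay 745 and 13351 bp away. Cbfa2t2, an ETO family gene, had 1 exonic member of 5, with CAGMTG and a WGATAA-type site, 29849 bp from the closest GATA1 call.

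Stem and progenitor regulators carried members at 6 of 23 genes (26.1%, against 7.02% of all genes), which was 6 of the 16 with TAL1 (37.5%, against 32.9%). Members were 9 of their 101 TAL1 locations (8.91%, against 14.4% of all TAL1 locations). Kit, the receptor of stem cell factor, had 3 members of 11, all in 1 intronic locus 4289 to 4353 bp from a start site. Its closest GATA1 calls were final locations 565, 502 and 501 bp away, so these members stood at the edge of the rule, and 2 of them lay 1 bp apart. Etv6, an ETS family repressor gene, had 2 intronic members of 5, both with a composite, and the closest GATA1 calls lay 6431 and 2924 bp away. Fli1, another ETS factor gene, had 1 of 5 and Mef2c 1 of 2.

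Genes of erythroid maturation carried members at 7 of 36 genes (19.4%, against 7.02% of all genes), which was 7 of the 33 with TAL1 (21.2%, against 32.9%). Members were 16 of their 309 TAL1 locations (5.18%, against 14.4%). Epb4.2 encodes protein 4.2 of the red cell membrane skeleton. All 5 of its TAL1 locations were members, they lay within 95 bp of a start site, and no final GATA1 location was within 10 kb. The closest GATA1 call was 17095 bp away. Each had 4 to 7 peak pairs within 100 bp, 3 had CAGMTG and 2 had a composite. Sox6, which encodes a factor that silences embryonic globin, had 3 members of 21 TAL1 locations, at 48, 988 and 93857 bp from a start site, and the closest GATA1 calls were 13370, 13439 and 53811 bp away. Rhag, a Rhesus complex gene, had 2 of 9, at 15 and 568 bp from its start site, the first with a composite. The closest GATA1 calls to these 2 members lay 1138 and 585 bp away. Bcl2l1, which encodes the survival protein BCL-XL, had 2 of 21, in 1 intronic locus.

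Megakaryocyte and platelet genes carried members at 3 of 17 genes (17.6%, against 7.02% of all genes), which was 3 of the 10 with TAL1 (30%, against 32.9%), and 4 of their 51 TAL1 locations were members (7.84%, against 14.4%). Gp6, the platelet collagen receptor gene, had a single TAL1 location, a member 155 bp upstream of the start site, with a full E-box composite. The closest GATA1 call to it lay 4177 bp away and the closest final GATA1 location 96282 bp away. Rab27b, a platelet granule GTPase gene, had 2 intronic members of 8, and Tubb1, which encodes the platelet beta-tubulin, had 1 of 3, 6170 bp upstream with a composite. Mast cell and basophil genes carried members at 2 of 16 genes (12.5%, against 7.02% of all genes), or 2 of the 8 with TAL1 (25%, against 32.9%). They were Kit and Cma1, a chymase gene whose single TAL1 location was a member without a WGATAA-type site or CAGMTG.

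Lists for other cell types had few TAL1 locations of any kind, so their counts of members say little. Granulocyte and macrophage genes had members at 0 of 19 genes, lymphoid genes at 0 of 24, bHLH factor genes other than those of TAL1, its E proteins and their inhibitors at 0 of 26 and neuron genes at 0 of 20. Endothelial and cardiac genes had 1 of 22 (4.55%), Flt1, a receptor of vascular endothelial growth factor, with 1 member 6409 bp upstream. Liver genes had 1 of 20 (5.00%), Ahsg, which encodes fetuin A. The share over all genes was 7.02%. Any TAL1 location at all was near 2 of the 19 granulocyte and macrophage genes, 3 of the 24 lymphoid genes, 4 of the 22 endothelial and cardiac genes, 1 of the 26 bHLH factor genes, 2 of the 20 neuron genes and 1 of the 20 liver genes.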

How the data were processed

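ChIP-exo of GATA1 (10 libraries) and TAL1 (15 libraries) in G1E and G1E-ER4 cells was analysed from 6 deposited lists of positions in mm9, which the authors made and which hold no measured value (unit: other). Per the labels and the study's methods, the authors used CASAVA 1.7 and bcl2fastq 2.15, aligned with Bowtie 1.00 or BWA 0.6.2 and 0.7.9a, merged replicates, removed blacklisted regions, paired GeneTrack peaks and called MultiGPS locations over 2-fold above input. Final locations are MultiGPS locations within 100 bp of a peak pair.

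Positions were compared with Python 3.11.15, numpy 2.4.6, scipy 1.17.1 and pysam 0.24.0, and drawn with matplotlib 3.10.9. The WGATAA matrix (8 bp) was learned by expectation maximization (30 iterations, pseudocount 1) from 500 GATA1 locations drawn at random, and the best site over the exact score threshold for p = 0.001 within 40 bp was used. Genes and start sites were those of protein-coding genes and transcripts of GENCODE for mm9; 2 listed genes, Gfi1 and Ptcra, were not among them. Per locus, the location of a class closest to its median position was used. Fisher's exact tests were two-sided, adjusted by the Benjamini-Hochberg method, and scripts were tested on simulated data. The members, the 11 gene lists and the tests were chosen with earlier results of these data known. Named are the 3 loci with the most members (ties by genome position), the 10 genes closest to the most members and up to 4 genes per list (ties in alphabetical order), with the sequences picked as stated beside them. A gene that this rule names is not reported here.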

Additional observations from a re-analysis of the deposited data

How the results depend on the processing

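The number of members was 2591, 1970 and 1712 with no GATA1 call under 250, 1000 and 2000 bp, and 4319 with the final GATA1 list only. The WGATAA odds ratio turned to 1.25 over all locations and to 1.14 among locations with 1 TAL1 peak pair. For start sites it was 0.873 within 5 kb (exact p = 0.0294), 1.03 among locations alone in their locus and 1.12 among those with 2 or more peak pairs. The cause of these shifts was not tested. The settings by number of peak pairs, and those on locations alone in their locus for motifs, start sites and intergenic share, were chosen after seeing the data. For the composite TG, CAGMTG, intergenic and peak pair results the direction and side of the threshold were the same under every alternative tried, with odds ratios of 1.61 to 1.97, 1.35 to 1.69, 1.11 to 1.32 and 0.186 to 0.448. No paired analysis was possible because the lists pool the replicates. The lists carry no depth, so a missing GATA1 call is not evidence that GATA1 was absent, and a location with 1 peak pair cannot be weighed further.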

Other observations

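On the X chromosome 65 of 219 TAL1 locations (29.7%, 95% exact interval 23.7 to 36.2) had no GATA1 call under 500 bp away, against 14.2% (13.6 to 14.8) of those on autosomes, where single chromosomes ranged between 9.77% and 18.1%. The X chromosome was singled out after its value was seen, and the difference was not tested. Its 65 members and 154 other TAL1 locations had a WGATAA-type site at 66.2% and 70.1%, and CAGMTG at 21.5% and 26.0%. Both orders are opposite to those over all members and all other TAL1 locations (62.5% and 57.0%, 29.7% and 20.4%), and they were not tested on this chromosome. For the WGATAA-type site the order depends on the unit. With 1 location per locus it was also less common at members over all chromosomes (65.0% against 69.3%). TG stood 7 or 8 bp upstream of 58.1% of 43 member sites and 51.9% of 108 other sites. The X chromosome held 119 final GATA1 locations.

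Of 2430 TAL1 MultiGPS locations outside the final list, 1098 (45.2%) had no GATA1 call under 500 bp away, against 14.4% of the final locations.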
